A study of Danio rerio with 6 samples.

Results

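Genes of the proteasome and of ubiquitin activation and conjugation were followed in iridophores sorted from zebrafish (Danio rerio) larvae and in the general cell population that served as their control. The deposited count table was searched by symbol for proteasome genes (psma to psmg followed by a digit), E2 genes (ube2 followed by a letter), E1 genes (uba followed by 1 to 7) and the polyubiquitin genes ubb and ubc, which gave 83 of the table's 11016 gene symbols. By role they were 16 core particle subunits, 20 regulatory particle subunits, 2 assembly factors of the regulatory particle, 3 activators or inhibitors, 3 core assembly chaperones, 3 ubiquitin precursors, 4 E1 genes and 31 E2 genes. The search also took in psmc3ip, a recombination factor named for its binding to a proteasome subunit.

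The proteasome degrades proteins that carry ubiquitin chains. Ubiquitin is activated by an E1 enzyme, passed to an E2 conjugating enzyme and attached to the substrate with the help of an E3 ligase. The core particle is a barrel of alpha and beta rings with its proteolytic sites on the inside, and the regulatory particle binds ubiquitin chains, removes them and threads the unfolded substrate into the barrel with a ring of ATPases. Most subunits are made in nearly all cells, whereas E2 enzymes form a diverse family whose members serve different E3 ligases and, in some cases, other modifiers such as SUMO and NEDD8.

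Both groups came from wild-type larvae at 5 days post fertilization that carried Tg(pnp4a:PALM-mCherry), a membrane-bound red fluorescent reporter under the promoter of the iridophore gene pnp4a. Iridophores are pigment cells that hold reflective purine crystals. The dissociated cells were stained with Hoechst and gated against debris, and about 20000 cells per sample were collected, with 3 iridophore and 3 control samples described as biological replicates. Whether the control excluded reporter-positive cells is not stated, nor is the number of larvae pooled. Counts were made from the 3' ends of poly(A) RNA by a bulk form of MARS-seq.

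Total counts ran from 616439 to 1686552 over the iridophore libraries and from 1612637 to 3282480 over the control libraries, and values by library are given in the order of replicates 1, 2 and 3. A count of 3, taken as the floor, stood for 1.69 to 5.50 CPM (counts per 1000000, scaled by TMM factors) in iridophores and for 0.897 to 1.79 CPM across the control libraries. These limits cover counting error only. Of 7 iridophore marker genes, 6 were in the table and all 6 were called higher in iridophores, against 22.1% of all genes tested. Their summed level was 2213 to 4677 CPM in iridophore libraries and 13.2 to 41.0 CPM in control libraries. The list includes the reporter's own gene, pnp4a, at a log2 fold change of 7.29, so the count is no independent check of the sort. In both groups the library name of replicate 1 ends differently from those of replicates 2 and 3. What the ending stands for is not stated. The values and tests given here do not adjust for it, and it was tried as a covariate among the alternatives. In bulk samples, fewer cells of a type and less RNA per cell cannot be told apart.

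Of the 83 members, 77 passed the filter on low counts and 6 did not. Among the 77, 18 were higher and 1 was lower in iridophores (edgeR, adjusted p under 0.05), and 58 were not called. Over all 6849 genes tested, 22.1% were called higher and 17.8% lower, so the members' 23.4% called higher was near the background, while 1.30% were called lower. The median log2 fold change of the members was 0.33, against 0.01 over all genes tested. Of the 77 log2 fold changes, 60 were above 0. With upper-quartile scaling the calls were 11 higher and 3 lower, against 1315 and 1514 of all 6849 genes tested. Without control replicate 2, 7 of 78 members were called higher, against 1314 of all 7452 genes tested in that fit. Without control replicate 3 it was 10 of 78, against 1359 of 7477. CPM values of the groups did not overlap for 26 members in the higher direction and 5 in the lower direction, or 33.8% and 6.49%, against 27% and 24.9% of all genes tested. Of the 19 calls, 7 were kept under each of 16 alternative analyses and 12 were lost under at least 1 of them. All alternatives reuse the same libraries.

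**Figure D1:**
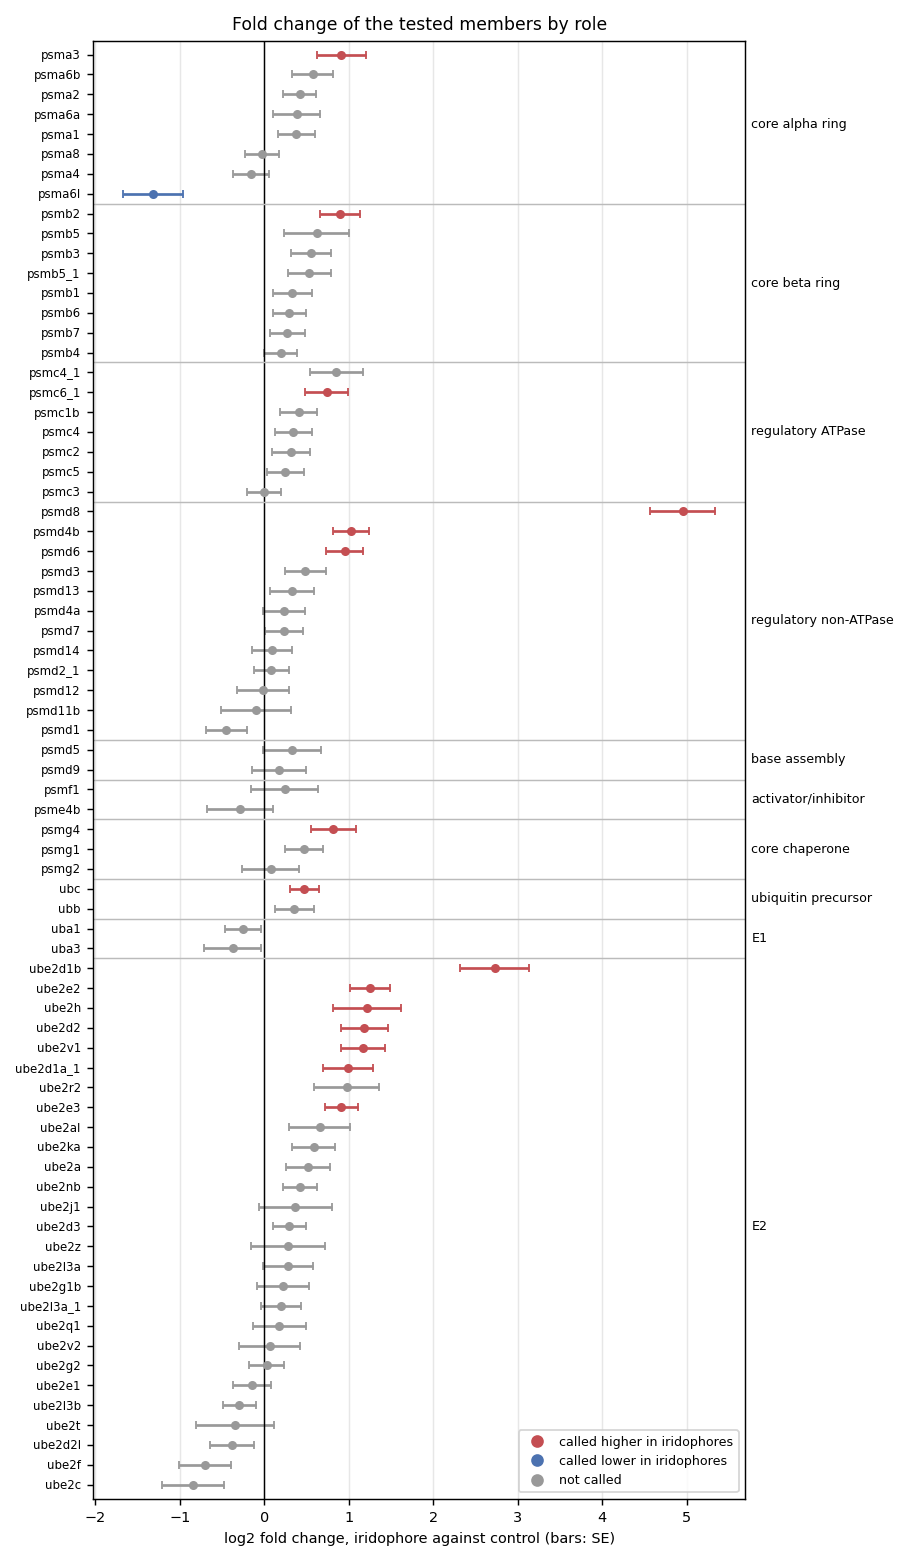
Log2 fold change of 73 of the 77 tested members (x axis, iridophore against control, bars are SE of the fit to 3 libraries per group), grouped by role on the y axis and coloured by the edgeR call. Most values lie between 0 and 1, psmd8 stands at 4.95 and ube2d1b at 2.73, and psma6l, at -1.32, is the only member called lower.

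In the core particle, 16 genes were tested. Of these, 2 were higher (12.5%) and 1 was lower (6.25%), against 22.1% and 17.8% of all genes tested. The count called higher was 0 without control replicate 2 or 3 and 1 without iridophore replicate 1 or 2. Their median log2 fold change was 0.38. The 8 genes of the alpha ring, which gates the entry to the barrel, ranged from -1.32 to 0.91, and the 8 of the beta ring from 0.19 to 0.90, all above 0. The alpha-ring gene psma3 was measured at 183, 145 and 119.8 CPM in the iridophore libraries, against 110.4, 55.4 and 68.7 CPM in the control libraries. Every iridophore value lay above every control value, with a log2 fold change of 0.91 (± 0.29 SE, adjusted p = 0.0309 by edgeR). The call was lost without iridophore replicate 1 or 2 or control replicate 2 or 3 (adjusted p by edgeR 0.0753 to 0.177). The beta-ring gene psmb2, whose product has no proteolytic site, was at 267, 215 and 167 CPM in the iridophore libraries, against 130.4, 97.6 and 118 CPM in the control libraries. It was higher in each iridophore library as well, by a log2 fold change of 0.90 (± 0.23 SE, adjusted p = 0.0129 by edgeR), and this call was lost without control replicate 2 or 3 (adjusted p by edgeR 0.0588 to 0.107).

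The 3 proteolytic beta subunits were not called. The gene psmb6, which encodes the caspase-like subunit, had 349.9, 364 and 281 CPM in the iridophore libraries, against 304, 254 and 250.2 CPM in the control libraries. Its groups overlapped, and the log2 fold change was 0.30 (± 0.20 SE, adjusted p = 0.265 by edgeR). For psmb7, the trypsin-like subunit, the values were 471, 391 and 345 CPM in iridophores against 398, 286 and 309.7 CPM in control cells, again with overlap and a log2 fold change of 0.27 (± 0.21 SE, adjusted p = 0.335 by edgeR). The chymotrypsin-like subunit is listed as psmb5 and psmb5_1. The row psmb5_1 held 87.9% of the summed counts of both rows in iridophores and 88.0% in the control. Its values were 56.8, 95.8 and 56.8 CPM in iridophores against 49.7, 45.8 and 47.7 CPM in control cells, which did not overlap, and its log2 fold change was 0.53 (± 0.25 SE, adjusted p = 0.119 by edgeR). The row psmb5 was at 5.50, 14.5 and 9.56 CPM in iridophores against 6.28, 6.55 and 6.67 CPM in control cells, with overlap and a log2 fold change of 0.62 (± 0.39 SE, adjusted p = 0.236 by edgeR). The deposited table does not say how rows with a suffix differ from those without, so the split of reads between them is uncertain. No inducible beta subunit of the immunoproteasome was analysed here.

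The member called lower was psma6l, another gene of the psma6 type beside psma6a and psma6b. It had 11.0, 14.5 and 6.19 CPM in the iridophore libraries, against 25.7, 25.6 and 20.5 CPM in the control libraries. All iridophore values were under all control values, at 40.2% of the control level by the fit, a log2 fold change of -1.32 (± 0.36 SE, adjusted p = 0.0152 by edgeR). Raw counts were 6, 10 and 11 in iridophores and 86, 43 and 40 in the control, and without iridophore replicate 3 the log2 fold change was -0.93 and the call was lost (adjusted p by edgeR 0.074). Its relatives were not called, and psma6b had a log2 fold change of 0.57 (± 0.24 SE, adjusted p = 0.086 by edgeR) and psma6a one of 0.38 (± 0.28 SE, adjusted p = 0.305 by edgeR). The remaining alpha-ring genes were not called either. The log2 fold change was 0.42 (± 0.19 SE, adjusted p = 0.114 by edgeR) for psma2, whose groups did not overlap, 0.38 for psma1, -0.03 for psma8 and -0.15 for psma4. In mammals PSMA8 belongs to the proteasome of the testis. Of the beta ring, psmb3 had 0.55 (adjusted p by edgeR 0.0827), psmb1 0.33 and psmb4 0.19.

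In the regulatory particle, 19 of 20 genes were tested, and 4 were higher and 0 were lower. The share called higher, 21.1%, was near the background of 22.1%, and the background of lower calls was 17.8%. Without control replicate 2 the count called higher was 2 of 19, against 1314 of all 7452 genes tested in that fit. The median log2 fold change was 0.31. At an unadjusted p under 0.05 there were 0 lower as well, against 1545 of all 6849 genes tested. The gene that stood apart was psmd8, a subunit of the lid, the part of the particle that removes ubiquitin chains. It was measured at 44.0, 52.3 and 41.6 CPM in the iridophore libraries, against 2.09, 0.595 and 1.03 CPM in the control libraries, which came from 24, 36 and 74 and 7, 1 and 2 raw counts. Each iridophore value was more than 10 times each control value. The log2 fold change was 4.95 (± 0.39 SE, adjusted p = 1.075e-05 by edgeR), a fitted 31.0-fold difference, and it was called under each of the 16 alternatives. The gene passed the filter on low counts through its iridophore libraries alone, and the alternatives reuse the same few control counts. Without control replicate 1 the 2 control libraries left were both under the floor of 3 counts per library, and the iridophore level was then at least 27.6-fold higher. The mean control level of psmd8 was 1.24 CPM, while the other tested genes of the particle had 13.8 to 151 CPM there. CPM is not strictly comparable between genes, and why psmd8 was so low in the control was not tested. In the RefSeq annotation of assembly GRCz12tu, psmd8 overlaps 1 other annotated locus, the long non-coding RNA LOC141378670. This overlap is of whole gene spans, while the counts were made with build danRer11. The labels do not give the annotation or say whether counting used strand. Whether reads of the overlapping locus entered the count of psmd8 is therefore not known. Of the other called members with a matched symbol, psmd6 overlaps slc2a9l1, psmg4 overlaps pycr3 and ubc overlaps myo18b. Their values carry the same limit.

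The lid gene psmd6 had 152, 161 and 111 CPM in the iridophore libraries, against 78.4, 69.6 and 69.2 CPM in the control libraries. These did not overlap, and the log2 fold change was 0.95 (± 0.22 SE, adjusted p = 0.00697 by edgeR). The call was lost without control replicate 2 (adjusted p by edgeR 0.0562). A ubiquitin receptor of the particle is encoded by the paralogs psmd4a and psmd4b. Of these, psmd4b was at 80.6, 84.2 and 68.6 CPM in iridophores against 42.8, 36.3 and 34.4 CPM in control cells, a log2 fold change of 1.02 (± 0.21 SE, adjusted p = 0.00429 by edgeR) that was kept under each alternative. Its paralog psmd4a, at 128, 100.2 and 82.7 CPM in iridophores against 108, 82.1 and 70.2 CPM in control cells, overlapped between the groups, with a log2 fold change of 0.23 (± 0.25 SE, adjusted p = 0.489 by edgeR). The lid deubiquitinase gene psmd14 had 82.4, 123 and 107 CPM in iridophores against 119, 93.5 and 82.0 CPM in control cells, also with overlap and a log2 fold change of 0.09 (± 0.24 SE, adjusted p = 0.794 by edgeR).

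At the lower end, psmd1, a scaffold subunit of the base, had 123, 85.7 and 77.6 CPM in iridophores against 151, 112 and 122 CPM in control cells. Its log2 fold change of -0.45 (± 0.24 SE, adjusted p = 0.169 by edgeR) did not pass the test, and it passed without iridophore replicate 1 (-0.68, edgeR adjusted p 0.0336). The lid genes psmd11b and psmd12 had log2 fold changes of -0.10 (SE 0.41) and -0.01 (SE 0.30). The level of psmd11b in iridophores varied, at 3.66, 11.6 and 18.6 CPM. The other non-ATPase genes, psmd3, psmd13, psmd7 and psmd2_1, lay between 0.08 and 0.49 and were not called. The row psmd2_2 was not tested, with 2, 3 and 4 counts in iridophores and 30, 5 and 4 in the control.

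Of the 7 rows for the ATPases of the base, which unfold the substrate, 1 was higher (14.3%) and 0 were lower. Over all genes tested it was 22.1% and 17.8%. At an unadjusted p under 0.05 there were 2 and 0, against 1790 and 1545 of all 6849 genes tested. The row called higher was psmc6_1, at 55.0, 72.6 and 52.9 CPM in the iridophore libraries, against 27.8, 41.1 and 39.5 CPM in the control libraries. The groups did not overlap, and the log2 fold change was 0.74 (± 0.25 SE, adjusted p = 0.0396 by edgeR), a call that was kept without iridophore replicate 1 and lost without any other single library (adjusted p by edgeR 0.0658 to 0.163). Over all 16 alternatives psmc6_1 was called in 6. The row psmc4_1 had 29.3, 65.3 and 37.1 CPM in iridophores against 28.4, 22.02 and 21.5 CPM in control cells, also without overlap. It missed the threshold, with a log2 fold change of 0.85 (± 0.32 SE, adjusted p = 0.0549 by edgeR), and passed it without iridophore replicate 1 (1.00, edgeR adjusted p 0.0234). The row psmc4 had 0.34 (adjusted p by edgeR 0.243). The remaining ATPases ranged from -0.0044 for psmc3 to 0.41 for psmc1b, with psmc2 at 0.31 and psmc5 at 0.25.

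**Figure D2:**
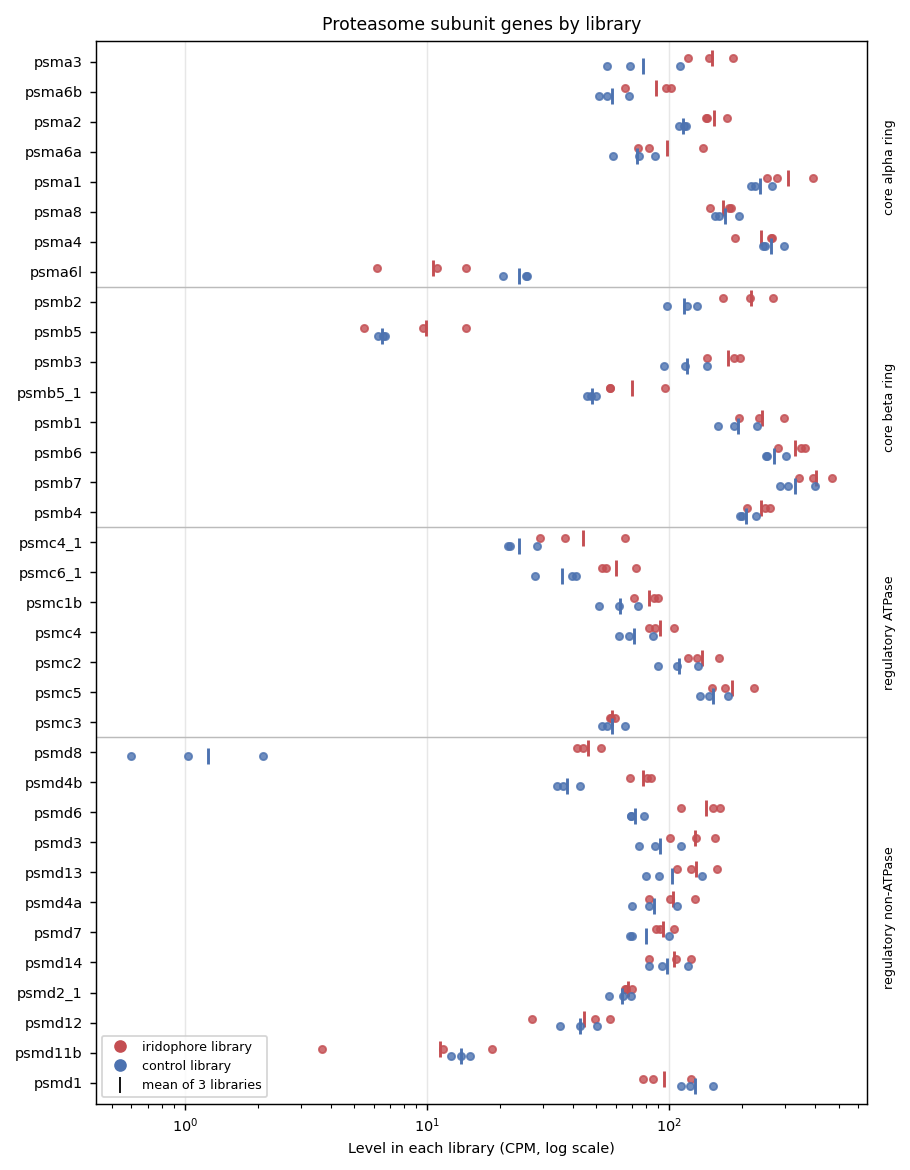
Level of each tested core and regulatory particle gene in CPM (log-scale x axis) in the 3 iridophore and 3 control libraries (points, with the mean as a tick), grouped by ring or subunit class. Points of both groups mix for most genes, whereas psmd8 has iridophore values of 41.6 to 52.3 CPM against 0.595 to 2.09 CPM in the control.

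Assembly factors and regulators of the proteasome showed 1 call, among the 3 core assembly chaperones (33.3%, against 22.1% called higher over all genes tested). Of the core assembly chaperones, which build the alpha ring, psmg4 had 49.5, 53.7 and 32.1 CPM in the iridophore libraries, against 26.3, 24.4 and 23.6 CPM in the control libraries. It was higher in every iridophore library, by a log2 fold change of 0.82 (± 0.27 SE, adjusted p = 0.0343 by edgeR). The call was kept without iridophore replicate 3 and lost without any other single library (adjusted p by edgeR 0.0671 to 0.137). Over all 16 alternatives psmg4 was called in 7. For psmg1 the values were 44.0, 42.1 and 43.9 CPM in iridophores against 35.0, 28.0 and 30.2 CPM in control cells, which did not overlap, and the log2 fold change of 0.47 (± 0.22 SE, adjusted p = 0.121 by edgeR) was not called. The log2 fold change of psmg2 was 0.08 (± 0.34 SE, adjusted p = 0.88 by edgeR). The base assembly factors psmd5 and psmd9 had 0.33 (± 0.35 SE, adjusted p = 0.484 by edgeR) and 0.17 (± 0.32 SE, adjusted p = 0.7 by edgeR). Neither psmf1, an inhibitor of the core particle, nor psme4b, a gene of the activator PA200, was called, with log2 fold changes of 0.24 (± 0.39 SE, adjusted p = 0.658 by edgeR) and -0.29 (± 0.39 SE, adjusted p = 0.582 by edgeR). The gene psme2, a subunit of the interferon-inducible activator PA28, was not tested, with 2, 5 and 14 counts in iridophores and 5, 0 and 6 in the control.

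Ubiquitin itself is made from precursors, as head-to-tail repeats from ubb and ubc and as fusions to ribosomal proteins. Of the 3 precursor genes tested, 2 were called higher, while 22.1% of all genes tested were, and 3 genes are too few for a share to be read. The polyubiquitin gene ubc was at 1196, 1257 and 1075 CPM in iridophores against 898, 804 and 837 CPM in control cells, without overlap, a log2 fold change of 0.47 (± 0.17 SE, adjusted p = 0.0489 by edgeR) that was kept without iridophore replicate 3 and lost without any other single library (adjusted p by edgeR 0.0579 to 0.319). Over all 16 alternatives ubc was called in 5. For ubb, with 1458, 1138 and 1264 CPM in iridophores against 1360.4, 843 and 815 CPM in control cells, control replicate 1 lay among the iridophore values. Its log2 fold change of 0.35 (± 0.23 SE, adjusted p = 0.256 by edgeR) was not called.

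Of the 3 E1 genes tested, 0 were called by edgeR in either direction (0 also at an unadjusted p under 0.05). Over all 6849 genes tested, that unadjusted level gave 1790 higher and 1545 lower. The ubiquitin E1 gene uba1 had 80.6, 62.4 and 73.7 CPM in the iridophore libraries, against 95.1, 73.8 and 87.7 CPM in the control libraries. Its groups overlapped, with a log2 fold change of -0.25 (± 0.21 SE, adjusted p = 0.388 by edgeR). The NEDD8 E1 gene uba3 was at 9.16, 7.26 and 11.2 CPM in iridophores against 13.5, 13.7 and 10.3 CPM in control cells, likewise with overlap, and its log2 fold change was -0.37 (± 0.34 SE, adjusted p = 0.412 by edgeR). The SUMO E1 gene uba2 was not tested, with 3, 0 and 8 counts in iridophores and 10, 4 and 4 in the control.

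Of 29 E2 genes tested, 9 were higher (31.0%) and 0 were lower, against 22.1% and 17.8% of all genes tested. At an unadjusted p under 0.05 there were 11 and 2 E2 genes, against 1790 and 1545 of all 6849 genes tested. Without control replicate 2, 5 of 29 E2 genes were called higher, against 1314 of all 7452 genes tested in that fit, so the E2 share was then near the background. Their median log2 fold change was 0.37, with values from -0.84 to 2.73. The SD of the log2 fold changes was 0.751 among E2 genes, 0.516 in the core particle and 1.13 in the regulatory particle. Without psmd8 the SD of the regulatory particle was 0.383, and without psma6l and psma8 that of the core particle was 0.275. No E2 gene was left out in this way, and ube2d1b, at 2.73, stayed in, so these SDs are not like for like. They also include counting error, which is larger for genes with few counts, and were not compared by a test. Over all genes tested the SD was 1.58.

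The largest E2 difference was in ube2d1b, of the Ube2d group, which works with many E3 ligases. It had 27.5, 43.6 and 27.6 CPM in the iridophore libraries, against 2.69, 7.74 and 5.13 CPM in the control libraries. Each iridophore value was above each control value, the log2 fold change was 2.73 (± 0.41 SE, adjusted p = 0.000628 by edgeR), a 6.62-fold difference, and the range without any 1 library was 2.29 to 2.99. Of the same group, ube2d2 was at 62.3, 42.1 and 39.9 CPM in iridophores against 18.8, 25.6 and 17.9 CPM in control cells, without overlap, a log2 fold change of 1.19 (± 0.28 SE, adjusted p = 0.00765 by edgeR). Both calls were kept under each alternative. The gene ube2d1b passed the filter on low counts through its iridophore libraries alone. The row ube2d1a_1, at 20.2, 18.9 and 25.3 CPM in iridophores against 12.9, 11.3 and 8.72 CPM in control cells, also rose without overlap, by 0.99 (± 0.30 SE, adjusted p = 0.0242 by edgeR) on the log2 scale. That call was lost without iridophore replicate 3 or control replicate 2 or 3 (adjusted p by edgeR 0.0929 to 0.135). In contrast, ube2d2l had 25.6, 21.8 and 32.1 CPM in iridophores against 31.4, 41.7 and 34.4 CPM in control cells. Its groups overlapped, and the log2 fold change was -0.39 (± 0.26 SE, adjusted p = 0.265 by edgeR). For ube2d3 the values were 80.6, 79.9 and 83.2 CPM in iridophores against 66.4, 60.7 and 71.3 CPM in control cells. These did not overlap, and the log2 fold change of 0.30 (± 0.20 SE, adjusted p = 0.259 by edgeR) was not called.

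The Ube2e group resembles Ube2d with an added amino-terminal stretch. Its gene ube2e2 had 42.1, 43.6 and 43.3 CPM in the iridophore libraries, against 20.0, 17.3 and 16.4 CPM in the control libraries. The groups lay well apart, with a log2 fold change of 1.25 (± 0.24 SE, adjusted p = 0.00238 by edgeR) that was kept under each alternative. The second gene, ube2e3, was at 163, 136 and 143 CPM in iridophores against 81.1, 73.8 and 80.0 CPM in control cells, again without overlap, a log2 fold change of 0.91 (± 0.20 SE, adjusted p = 0.00495 by edgeR) that was lost without control replicate 2 (adjusted p by edgeR 0.0535). The third, ube2e1, had 65.9, 72.6 and 47.2 CPM in iridophores against 67.3, 65.5 and 68.7 CPM in control cells. Its groups overlapped, and the log2 fold change was -0.14 (± 0.23 SE, adjusted p = 0.649 by edgeR).

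The gene ube2v1 encodes an E2 variant without the catalytic cysteine that pairs with Ube2n, and it had 169, 242 and 132 CPM in the iridophore libraries, against 90.9, 75.0 and 73.8 CPM in the control libraries. No values overlapped, and the log2 fold change of 1.17 (± 0.26 SE, adjusted p = 0.00563 by edgeR) was kept under each alternative. Its paralog ube2v2 varied widely, with 23.8, 46.5 and 68.0 CPM in iridophores against 31.7, 50.6 and 58.4 CPM in control cells, and its log2 fold change was 0.06 (± 0.36 SE, adjusted p = 0.911 by edgeR). In both groups replicate 1 was the lowest for ube2v2. The share of ube2v1 in the counts of both paralogs was 79.2% ± 11.6 in iridophores against 63.2% ± 9.66 in control cells, with overlap between the groups (mean ± SD, n = 3 each), and the difference between the paralogs was not tested. Their partner ube2nb, with 69.6, 72.6 and 61.3 CPM in iridophores against 53.2, 50.0 and 47.2 CPM in control cells, did not overlap between the groups and was not called, at 0.42 (± 0.20 SE, adjusted p = 0.125 by edgeR). The gene ube2h, an E2 known in mammals for its part in red cell maturation, had 9.16, 11.6 and 20.2 CPM in iridophores against 7.78, 4.17 and 6.67 CPM in control cells. It did not overlap, with a log2 fold change of 1.22 (± 0.40 SE, adjusted p = 0.0359 by edgeR), and was lost without iridophore replicate 2 or 3 or control replicate 2 or 3 (log2 fold change 0.67 to 1.39 over all 6 omissions, adjusted p by edgeR 0.0537 to 0.338 where lost). It was tested in 15 alternatives and called in 7. Raw counts of ube2h were 5, 8 and 36 in iridophores and 26, 7 and 13 in the control. Its control libraries alone would not have passed the filter on low counts, as control replicate 2 lay under it.

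At the other end of the family, ube2c, the E2 of the anaphase-promoting complex, had 11.0, 4.36 and 10.12 CPM in the iridophore libraries, against 15.6, 13.7 and 17.9 CPM in the control libraries. All iridophore values were under the control values, and the log2 fold change of -0.84 (± 0.36 SE, adjusted p = 0.0898 by edgeR) missed the threshold. The NEDD8 E2 gene ube2f behaved alike, with 11.0, 17.4 and 11.2 CPM in iridophores under 21.5, 23.8 and 17.9 CPM in the control and a log2 fold change of -0.70 (± 0.31 SE, adjusted p = 0.0944 by edgeR). Both were called lower with upper-quartile scaling (adjusted p by edgeR 0.0483 and 0.0474). The gene ube2l3b, of a group that works with HECT and RBR ligases, had 104, 98.7 and 92.8 CPM in iridophores against 133, 114 and 115 CPM in control cells, lower without overlap and not called, at -0.30 (± 0.20 SE, adjusted p = 0.26 by edgeR). The Fanconi anaemia E2 gene ube2t overlapped and had -0.35 (± 0.46 SE, adjusted p = 0.577 by edgeR).

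Of the further E2 genes given here none was called. The closest to the threshold was ube2r2, related to the E2 of SCF ligases, at 0.98 (± 0.39 SE, adjusted p = 0.0699 by edgeR) with groups that did not overlap. Log2 fold changes were 0.65 for ube2al, 0.58 for ube2ka, 0.52 for ube2a, a Rad6-type E2 of DNA damage tolerance, and 0.37 for ube2j1. They were 0.28 for ube2z, 0.28 for ube2l3a, 0.22 for ube2g1b, 0.20 for ube2l3a_1, 0.18 for ube2q1 and 0.03 for ube2g2. The genes ube2g2, ube2j1 and ube2g1b belong to E2 types known from degradation at the endoplasmic reticulum. The members ube2d4, with 2, 1 and 3 counts in iridophores and 12, 7 and 8 in the control, and ube2j2, with 3, 2 and 2 and 16, 2 and 13, were not tested, and neither was psmc3ip, with 2, 0 and 4 and 8, 1 and 5.

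**Figure D3:**
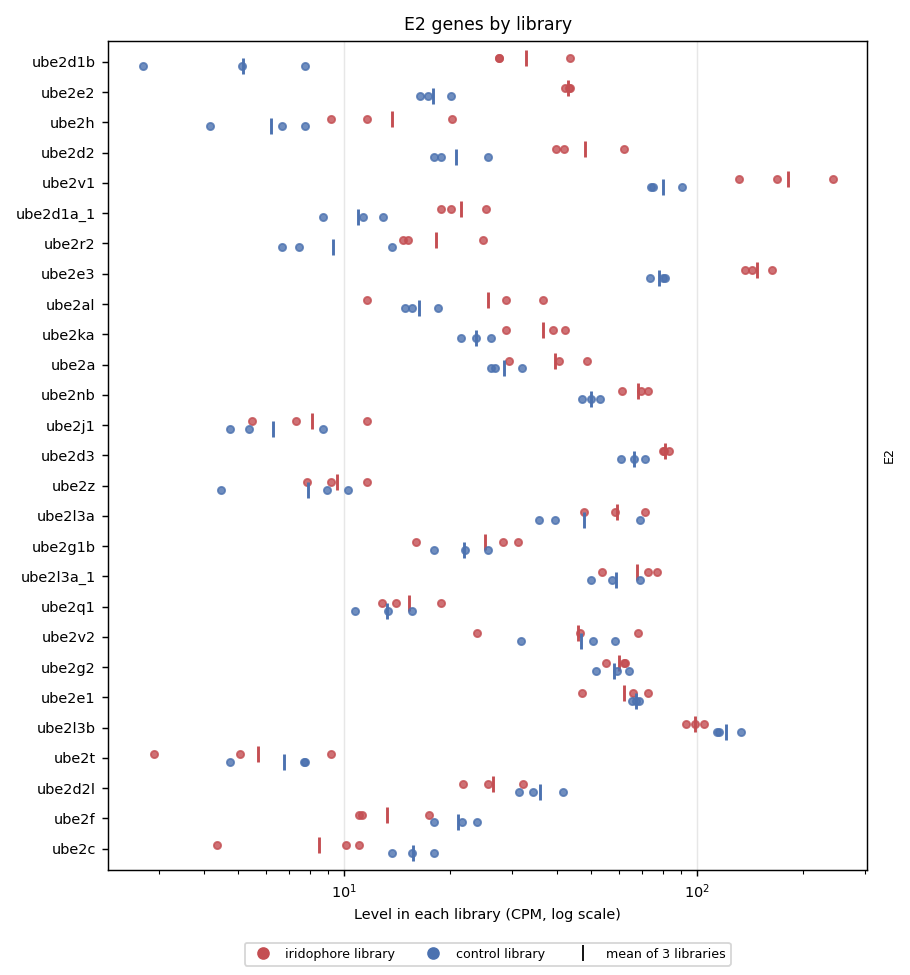
Level of 27 of the 29 tested E2 genes in CPM (log-scale x axis) in each of the 3 iridophore and 3 control libraries (points, with the mean as a tick), ordered from the highest to the lowest log2 fold change. Iridophore points lie to the right of the control points for ube2d1b and ube2e2, mix with them in the middle of the order, and lie to the left for ube2f and ube2c.

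Paralogs were also compared within their families. The 6 rows of the Ube2d group were summed in each library and each row expressed as a share of that sum, which does not depend on the scaling of libraries. Shares within a family are tied, so a gain in any row lowers the shares of the rest. The share of ube2d1b was 15.5% ± 4.72 in iridophores against 3.57% ± 1.57 in control cells (mean ± SD, n = 3 each), and that of ube2d2l was 12.5% ± 2.497 in iridophores against 24.99% ± 2.2999 in control cells. Neither overlapped between the groups. Among the 3 Ube2e genes, ube2e1 took 24.4% ± 4.25 in iridophores against 41.1% ± 1.02 in control cells, also without overlap, while ube2e3 took 58.5% ± 3.87 in iridophores against 47.9% ± 0.678 in control cells. The CPM values of ube2d2l and ube2e1 themselves overlapped between the groups, and neither gene was called. The share of ube2d3 was lower without overlap, at 38.3% ± 1.52 in iridophores against 46.5% ± 5.52 in control cells. Its CPM went the other way, higher in iridophores without overlap. In the Psmd4 pair the share of psmd4b was 43.2% ± 4.00 in iridophores against 30.6% ± 2.24 in control cells, without overlap. The share of psma6l among 3 psma6 genes was 5.34% ± 1.70 in iridophores against 15.6% ± 2.93 in control cells, without overlap. The rows psmb5 and psmb5_1 lay closer between the groups, and psmb5_1 took 87.9% ± 2.93 in iridophores against 88.0% ± 0.676 in control cells. With 3 samples against 3, a two-sided exact permutation test of any 1 of these shares cannot give a p under 0.1, so they are given as values.

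**Figure D4:**
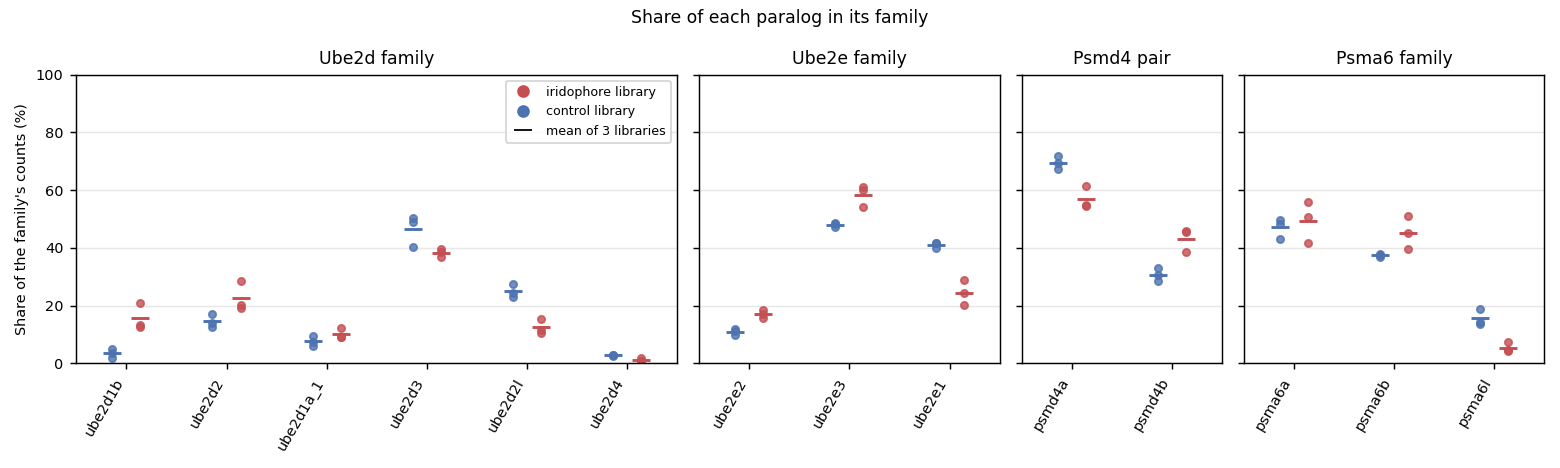
Share of each row in the summed counts of its family (y axis, percent) in the 3 iridophore and 3 control libraries (points, with the mean as a dash) for 4 of the families compared. The points of ube2d1b, ube2e2 and psmd4b are higher in iridophores and those of ube2d2l, ube2e1 and psma6l are lower, with no overlap between groups. Most other rows of these families do not overlap either. Among them, ube2d3 is lower in share although its CPM was higher without overlap. Shares of a family are tied, and the CPM values of ube2d2l and ube2e1 overlapped between the groups.

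Set side by side, the core particle, the regulatory particle and the E2 genes had median log2 fold changes of 0.38, 0.31 and 0.37. The shares called higher were 12.5%, 21.1% and 31.0%, against 22.1% of all genes tested. As a share of all counts, the core particle took 0.283%, 0.284% and 0.253% in the iridophore libraries, against 0.271%, 0.219% and 0.219% in the control libraries. Control replicate 1 lay within the iridophore range, and the groups overlapped. The regulatory particle took 0.150%, 0.172% and 0.162% in the iridophore libraries, against 0.160%, 0.130% and 0.121% in the control libraries, with the same overlap. The E2 genes took 0.128%, 0.130% and 0.138% in the iridophore libraries, against 0.108%, 0.101% and 0.103% in the control libraries, and every iridophore value was above every control value.

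Control replicate 1 was the highest of the control libraries for each of the 3 shares, whereas iridophore replicate 1, with the same name ending, was the lowest of the iridophore libraries for the regulatory particle and the E2 genes and lay between the others for the core particle. Within replicates 2 and 3 alone, 22 of 77 members were called higher and 1 lower, against 1703 and 1468 of all 7251 genes tested. Of the 22, 3 were in the core particle, 6 in the regulatory particle and 9 among E2 genes. Replicate 1 has 1 library per group and allows no test. The medians of all 3 classes stayed above 0 under each of the 16 alternatives. Upper-quartile scaling moved the median of all genes tested by -0.15, to -0.14, and under it the class medians were 0.23, 0.16 and 0.21. Without control replicate 2 they were 0.22, 0.12 and 0.27, and without control replicate 3 they were 0.31, 0.14 and 0.40, so that leaving out either control library lowered the regulatory particle's median further than upper-quartile scaling did.

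Other genes of the pathway were read from lists written from general knowledge. The shares in brackets stand against 22.1% called higher and 17.8% called lower over all genes tested. Of the proteasome-associated genes, 14 of 29 listed genes were tested. Among them 2 were called higher (14.3%) and 1 lower (7.14%), with a median log2 fold change of 0.18. The called ones included shfm1, the zebrafish symbol for the small lid subunit Sem1, with 129 ± 38.5 CPM in iridophores against 26.1 ± 1.363 CPM in control cells and a log2 fold change of 2.28 (± 0.27 SE, adjusted p = 0.00017 by edgeR). The core maturation factor pomp had 161 ± 24.4 CPM in iridophores against 78.6 ± 17.2 CPM in control cells, a log2 fold change of 1.02 (± 0.24 SE, adjusted p = 0.00736 by edgeR). The gene nfe2l2b, a paralog of the stress regulator Nrf2, was lower, at -1.86 (± 0.49 SE, adjusted p = 0.0136 by edgeR). Its iridophore counts were near the floor, at 2, 1 and 4, against 35, 14 and 13 in the control. Its paralog nfe2l2a was not called (0.16, edgeR adjusted p 0.68), and nor were the proteasome-bound deubiquitinase gene usp14 (0.45) and the receptor gene adrm1 (0.20).

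For the segregase p97 and the shuttle factors, which bring substrates to the proteasome, 18 of 31 listed genes were tested. There 1 was called higher (5.56%) and 1 lower (5.56%), with a median log2 fold change of 0.01. The p97 cofactor gene ufd1l rose by 1.28 (± 0.23 SE, adjusted p = 0.00177 by edgeR) on the log2 scale and the shuttle gene ubqln4 was lower, at -0.68 (± 0.24 SE, adjusted p = 0.0453 by edgeR). The p97 gene vcp itself had 0.02 (± 0.33 SE, adjusted p = 0.974 by edgeR).

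Among E3 ligases and their subunits, 24 of 64 listed genes were tested. Calls were 8 higher (33.3%) and 0 lower, against 22.1% and 17.8% of all genes tested, with a median log2 fold change of 0.34. The elongin C gene tceb1b, an adaptor of cullin ligases, had 65.2 ± 17.6 CPM in iridophores against 11.6 ± 1.43 CPM in control cells, a log2 fold change of 2.49 (± 0.28 SE, adjusted p = 0.000107 by edgeR). The SCF adaptor gene skp1 had 315 ± 46.6 CPM in iridophores against 127 ± 9.64 CPM in control cells, a log2 fold change of 1.31 (± 0.20 SE, adjusted p = 0.000709 by edgeR). The RING subunits of cullin ligases rose too, rnf7 by 0.86 and rbx1 by 0.70 on the log2 scale, while the tested cullins cul1b, cul2, cul3a, cul4a and cul4b were not called and ranged from -0.53 to 0.38.

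Of the deubiquitinases, 23 of 58 listed genes were tested. Calls were 4 higher (17.4%) and 2 lower (8.70%), under the 22.1% and 17.8% of all genes tested. The median log2 fold change was -0.01. The gene usp2b had every iridophore library at or under 3 counts and was at least 2.91-fold lower, at 11.2 ± 3.21 CPM in the control, and usp4 was lower at -1.23 (± 0.43 SE, adjusted p = 0.0456 by edgeR). Higher were brcc3, whose product trims chains in DNA repair, at 2.13 (± 0.41 SE, adjusted p = 0.00281 by edgeR), and usp22, of the SAGA complex, at 1.26 (± 0.39 SE, adjusted p = 0.0279 by edgeR).

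For the ubiquitin-like modifiers, 21 of 46 listed genes were tested. Calls were 8 higher (38.1%) and 2 lower (9.52%), against 22.1% and 17.8% of all genes tested. The median log2 fold change was 0.53. The modifier gene nedd8 had 47.4 ± 3.87 CPM in iridophores against 9.56 ± 2.09 CPM in control cells, a log2 fold change of 2.27 (± 0.27 SE, adjusted p = 0.000164 by edgeR). The COP9 signalosome gene cops7a, part of the complex that removes NEDD8 from cullins, rose by 1.71 (± 0.36 SE, adjusted p = 0.0044 by edgeR). Lower were sae1, the partner of Uba2 in the SUMO E1, at -1.32 (± 0.37 SE, adjusted p = 0.0175 by edgeR), and the UFM1 ligase gene ufl1, at -1.14 (± 0.28 SE, adjusted p = 0.00944 by edgeR). The list holds 3 ribosomal protein genes, of which rps27a, a ubiquitin fusion, was called higher at 1.13 (± 0.29 SE, adjusted p = 0.0127 by edgeR). The genes faua, a fusion to a ubiquitin-like protein, and rps27.1, which carries no ubiquitin, were not called (adjusted p by edgeR 0.0521 and 0.0549).

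**Figure D5:**
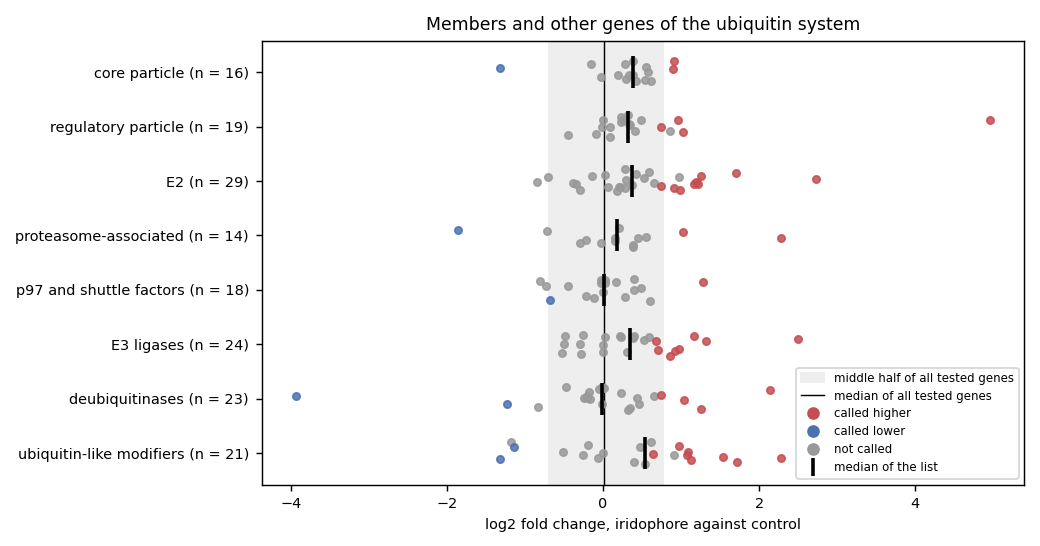
Log2 fold change (x axis, iridophore against control) of each tested gene in the 3 member classes and in 5 further lists of the ubiquitin system (points coloured by the edgeR call, thick tick at the list's median), over the interquartile range of all tested genes in grey. The list medians lie between -0.01 and 0.53, and in each list most genes were not called.

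Markers of other cells and of stress differed between the same libraries. Of 18 skeletal muscle markers 16 were detected and tested, and 11 (68.75%) were called higher, against 22.1% of all genes tested. Their summed level was 24493 to 28415 CPM in iridophore libraries and 12759.9 to 15725 CPM in control libraries. Of 8 erythrocyte markers 6 were detected and 5 were tested. All 5 were called lower, against 17.8% of all genes tested, and the sum was 763 to 865 CPM in iridophore libraries and 1552 to 2097 CPM in control libraries. The heat shock and immediate early list had 18 of 22 genes in the table and 16 tested. Of the 16, 4 (25%) were called higher, near the 22.1% of all genes tested, and 0 lower. The list summed to 74129 to 78331 CPM in iridophore libraries and 54361 to 56981 CPM in control libraries. The proliferation list, with 16 of 18 genes in the table, was at 479 to 497 CPM in iridophore libraries and 292 to 318 CPM in control libraries. Of its 15 tested genes, 5 (33.3%) were called higher and 1 (6.67%) lower. The replication gene mcm3 was higher, at 1.79 (± 0.35 SE, adjusted p = 0.00286 by edgeR), and the cycling marker mki67 was lower, at -1.33 (± 0.40 SE, adjusted p = 0.0249 by edgeR). For macrophages and neutrophils 4 of 9 markers were detected, at 20.2 to 51.7 CPM in iridophore libraries and 2.69 to 12.8 CPM in control libraries. None of these 5 sums overlapped between the groups. The sums of the neuron, epidermis, melanophore and xanthophore lists overlapped, and neuron markers, for example, were at 78.7 to 106 CPM in iridophore libraries and 52.0 to 116 CPM in control libraries. A sum can hide genes that differ in opposite directions. Of 3 xanthophore markers tested, 1 was called higher and 2 lower, and of 3 melanophore markers tested, 1 was called higher and 0 lower. None of the 6 neuron and 3 epidermis markers tested was called. Lists this short are too few for a share to be read. The part of these differences in the members' values was not tested.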

How the data were processed

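Gene expression was measured by bulk MARS-seq, a 3'-end method, in 3 iridophore and 3 control samples. The deposited table holds raw counts per gene symbol, which the authors had not normalized. Per the submitters' processing notes, cutadapt, STAR 2.5.2b, HTSeq and DESeq2 1.36.1 were used with build danRer11. The roles of these tools, the annotation, the use of molecular identifiers, strand and the filter on genes are not given in the sources used here. With 3'-end counts, near-identical paralogs and transcripts sharing an end may share reads, and CPM is not per transcript length, so levels are compared within a gene.

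Groups and replicate numbers came from the sample titles, and columns were matched through the library names. Counts were fitted with edgeR 4.0.16 in R 4.3.3: default expression filter (minimum count 10, minimum total 15; 6849 of 11016 genes kept), TMM scaling, quasi-likelihood F test with group alone, two-sided, Benjamini-Hochberg adjustment over the 6849 genes, threshold 0.05. The script was tested on simulated data. The SE was taken as the size of the log2 fold change over the root of its F statistic. CPM uses TMM-adjusted library sizes. Where a group was at or under 3 counts in every library, the fold is a bound against 3 counts per library. Replicates are described as biological, and no 2 libraries of a group agreed within sampling noise.

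RefSeq symbols of GRCz12tu matched 75 of the 83 members, of which 14 overlap another annotated gene, and were used for names and overlaps only. Members, roles and lists were chosen with earlier results of these data known. Named were all members of small roles, the proteolytic subunits, psmd14, uba1 and the extremes of each role; of other lists, the 2 highest and 2 lowest called genes, and further genes chosen after their values were seen. Some members are counted but not reported by name here. The alternatives were 3 scalings, 2 filters, DESeq2 1.42.0, limma-voom (limma 3.58.1), terms for replicate number or name ending, replicates 2 and 3 alone, and leaving out each library.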

Additional observations from a re-analysis of the deposited data

How the results depend on the processing

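The counts over all genes tested, 1513 higher and 1217 lower, stayed within 1.5 times under each alternative. Leaving out 1 library at a time gave 7 to 16 members called higher and 0 to 2 lower, with 0 to 2 higher and 0 to 1 lower in the core particle, 2 to 5 and 0 to 1 in the regulatory particle and 5 to 8 higher among E2 genes, where 0 were lower. The 7 came without control replicate 2 and 10 without control replicate 3. Over all genes tested, the fits without 1 library gave 1248 to 1704 higher and 860 to 1396 lower, of 7204 to 7572 genes. With upper-quartile factors 11 members were higher and 3 lower, 1 of them higher in the core particle, and 2 E2 genes were lower. The core particle had 4 of 16 higher with at least 10 counts in every library of one group, against 1307 of all 6202 genes tested. It had 4 of 16 with the library-name ending as a covariate, against 1674 of all 6849. DESeq2 called 12 of 77 members higher and 1 lower, against 1333 and 1085 of all 6849 genes tested. For the 48 members given by name under the naming rule, 0 values turned direction with a call on either side, 47 lost and 16 gained a call and 702 did neither. The cause was not tested. A planned share of counts with fewer members is not reported here. Same-numbered libraries share their name ending across groups, but the labels name no shared animal, batch or day, and the numbers were not taken as pairs. Deviations of same-numbered libraries correlated at 0.315, 0.071 and 0.175, and iridophore replicate 2 correlated best with control replicate 3 (0.119). Across the endings the correlations ran from -0.241 to -0.152. With the replicate block 1584 genes were higher and 1387 lower, and 20 and 1 members. Depth limits mostly the members near the floor, in iridophore replicates 1 and 2.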
